A study of Mus musculus with 30 samples.

Results

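The genes described here are 9 grouped as genes of T cells within the gut epithelium, Cd3d, Cd3e, Cd3g, Cd2, Cd8a, Lck, Gzma, Gzmb and Itgae. They were taken by name from a table of 14475 genes, and all 9 were found in it. The table gives FPKM, a level scaled to gene length and to library size, in 30 libraries of colon tissue from female mice. The mutants (genotype label TM-DKOAsc) were C1galt1 f/f; VillinCre-ERT2; C3GnT-/- mice, in which a tamoxifen-activated Cre recombinase driven by the Villin promoter, which is active in gut epithelium, deletes C1galt1, and in which C3GnT, the gene B3gnt6, is inactive in every cell. C1galt1 makes core 1 O-glycans and B3gnt6 makes core 3 O-glycans, the bases of the sugar chains on mucins. The controls were littermates called control or WT in the labels, with no genotype per locus. Tamoxifen was injected into mutants and controls alike on 5 days (0.5 mg each time, about 20 mg/kg), and the mice were analysed 5 or 10 days after the last dose, with no label for the time of each library. The ascending and the descending colon each had 8 mutant and 7 control libraries. Cage A, labelled C57BL/6 Background and aged 3.4 months, gave 3 mutant and 2 control libraries per region. Cage B, labelled Mixed BL/6-129SvJ and aged 2.6 months, gave 2 and 3. Cage C, with the same strain label and aged 3.2 months, gave 3 and 2. Libraries are named here by region, genotype, cage and replicate number. The labels do not say which libraries share an animal, so p-values measure the spread between libraries.

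Intraepithelial T cells sit between the epithelial cells of the gut, and many of them carry CD8 and are loaded with granzymes. The T cell receptor signals through the CD3 chains, and the kinase Lck, bound to CD4 or CD8, starts that signal by phosphorylating them. Granzymes are proteases that killer cells release into their targets. The integrin chain encoded by Itgae, known as CD103, pairs with the beta chain encoded by Itgb7 and binds E-cadherin on epithelial cells, which is encoded by Cdh1. In a piece of tissue, fewer T cells and less RNA per T cell cannot be told apart. Nor can RNA of intraepithelial T cells be told from that of other cells in the piece that use the same genes.

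The 3 CD3 genes lie together on chromosome 9 (GRCm38, GENCODE M21). Cd3g (44969572 to 44980431, minus strand) and Cd3d (44981786 to 44987339, plus strand) are transcribed away from each other from start sites 1355 nt apart, and Cd3e (44998740 to 45009627, minus strand) follows. Gzma is on chromosome 13 (113093825 to 113100981, minus strand) and Gzmb on chromosome 14 (56258838 to 56262260, minus strand). Cd2 is on chromosome 3 (101275899 to 101287939, minus strand), Cd8a on chromosome 6 (71373427 to 71379173, plus strand), Lck on chromosome 4 (129548344 to 129573641, minus strand) and Itgae on chromosome 11 (73090583 to 73147446, plus strand). Of the promoter windows found, those of the CD3 and granzyme genes are shown here. Each runs across the start that RefSeq gives the gene and is 300 bases long (RefSeq, GRCm38.p6), and the capitals mark matches to the motifs named next. The RefSeq start of Gzmb lies upstream of the GENCODE one, so its window lies wholly before the GENCODE gene.
Cd3g, chr9:44980382-44980681, minus strand: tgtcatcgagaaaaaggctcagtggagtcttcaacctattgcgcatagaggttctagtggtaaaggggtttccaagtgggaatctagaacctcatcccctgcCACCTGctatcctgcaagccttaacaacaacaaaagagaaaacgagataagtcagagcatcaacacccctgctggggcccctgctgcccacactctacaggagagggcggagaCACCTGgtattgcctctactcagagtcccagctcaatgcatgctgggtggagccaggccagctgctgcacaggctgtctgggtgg
Cd3d, chr9:44981536-44981835, plus strand: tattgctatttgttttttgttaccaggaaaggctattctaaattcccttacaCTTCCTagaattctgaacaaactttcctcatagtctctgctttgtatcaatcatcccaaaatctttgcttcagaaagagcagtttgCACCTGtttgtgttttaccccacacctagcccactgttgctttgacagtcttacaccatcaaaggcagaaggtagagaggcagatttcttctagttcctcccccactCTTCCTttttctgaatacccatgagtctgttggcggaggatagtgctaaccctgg
Cd3e, chr9:45009562-45009861, minus strand: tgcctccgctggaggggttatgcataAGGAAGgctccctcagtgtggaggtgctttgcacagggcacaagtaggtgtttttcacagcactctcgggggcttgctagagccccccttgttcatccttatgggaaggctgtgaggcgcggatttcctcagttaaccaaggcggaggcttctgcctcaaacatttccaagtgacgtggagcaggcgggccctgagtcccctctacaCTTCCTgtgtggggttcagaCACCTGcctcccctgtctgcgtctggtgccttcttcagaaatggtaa
Gzma, chr13:113100932-113101231, minus strand: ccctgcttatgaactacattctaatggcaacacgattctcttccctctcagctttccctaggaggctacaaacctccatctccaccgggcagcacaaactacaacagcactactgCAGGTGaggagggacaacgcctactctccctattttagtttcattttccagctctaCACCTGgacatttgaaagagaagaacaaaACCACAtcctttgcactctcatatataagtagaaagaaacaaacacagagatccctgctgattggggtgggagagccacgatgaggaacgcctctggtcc
Gzmb, chr14:56262285-56262584, minus strand: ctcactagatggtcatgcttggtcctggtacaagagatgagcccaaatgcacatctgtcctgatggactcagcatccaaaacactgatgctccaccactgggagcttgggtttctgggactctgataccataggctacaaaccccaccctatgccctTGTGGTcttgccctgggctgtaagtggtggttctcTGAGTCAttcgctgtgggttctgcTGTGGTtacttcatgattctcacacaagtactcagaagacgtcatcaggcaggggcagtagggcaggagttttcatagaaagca

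The RefSeq table held 8 such windows for 7 of the 9 genes, with a pair for Lck. The letters of 4 motifs were searched on both strands: TGTGGT (RUNX), AGGAAG (ETS), CACCTG (an E-box) and TGACTCA (AP-1). Overlaps were allowed, and no matches in the 8 windows overlapped each other. The E-box letters stood in 6 of the 8 windows, against 20.2% of 32851 mouse promoter windows of the same length. The ETS letters stood in 4 of 8 (35.4% of all windows), the RUNX letters in 3 of 8 (16.8%) and the AP-1 letters in 1 of 8 (5.2%), which was that of Gzmb. In the sequences printed above, the RUNX letters are in both granzyme windows and in no CD3 window, and the ETS letters are in those of Cd3d and Cd3e. The window of Cd8a held none of the 4. A match of letters is a description of the sequence and says nothing of a factor's binding.

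Some facts of the libraries bear on every result. Depth was estimated from the spacing of low FPKM values, at 1430000 to 7750000 reads in ascending mutants, 3390000 to 6460000 reads in ascending controls, 6490000 to 8850000 reads in descending mutants and 3140000 to 8780000 reads in descending controls. The shallowest were the 3 of cage A among the ascending mutants, at 1430000 to 1590000 reads. By these estimates 1 read of Gzma is worth 0.128 to 0.695 FPKM in ascending libraries and 0.112 to 0.317 FPKM in descending libraries, and its values stand for 4.89 to 127 reads in ascending libraries and 0 to 3.87 reads in descending libraries. Low values of other members rest on few reads in both regions: Cd3d stands for 2.02 to 39.2 reads in ascending libraries and 0 to 10.04 in descending libraries, and Cd2 for 0 to 9.80 and 0 to 6.87. C1galt1 averaged 26.7 ± 6.64 FPKM in ascending mutants (SD, n = 8) and 35.3 ± 9.44 in ascending controls (n = 7), and 28.2 ± 7.15 in descending mutants (n = 8) and 32.9 ± 3.47 in descending controls (n = 7). Which part of C1galt1 is deleted is not stated in the labels, and cells other than epithelium keep it. B3gnt6 stood above 1 FPKM in no library but ascending controls B1 and B2, at 9.52 and 19.52 FPKM, so it separates the genotype labels in those libraries only. The summed FPKM of 8 smooth muscle genes ran from 6.92 to 58.85 in ascending mutants and from 13.5 to 457 in ascending controls, the highest being control B1. It ran from 36.5 to 299 in descending mutants and from 28.9 to 467 in descending controls.

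The T cell genes were far higher in the ascending than in the descending colon, in mutants and in controls. Summed over the 9 genes, FPKM ran from 11.99 to 41.88 in ascending mutants against 2.28 to 7.57 in descending mutants. In controls the sums ran from 17.73 to 66.13 in the ascending colon against 3.94 to 6.37 in the descending colon. No ascending library of either genotype fell into the range of the descending ones. The difference was largest for the granzymes and Cd8a and smallest for Itgae and Cd2.

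**Figure D1:**
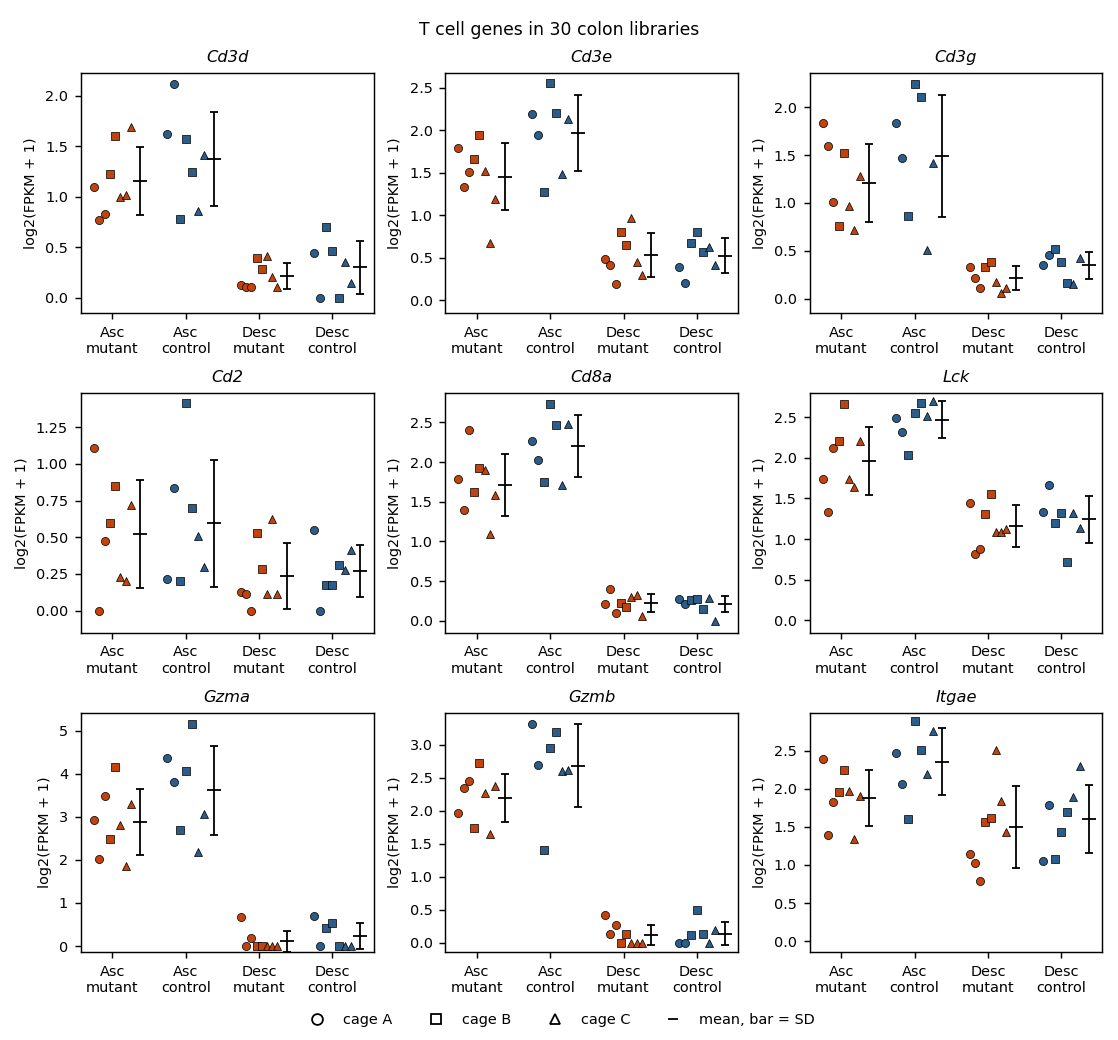
Levels of the 9 T cell genes as log2(FPKM + 1) in each library, by region (Asc, ascending; Desc, descending) and genotype. Points are libraries with the cage as shape, and bars are the mean and SD of 8 mutant or 7 control libraries; the ascending points of Cd8a, Gzma and Gzmb lie above all descending points of the same genotype, whereas those of Itgae and Cd2 overlap.

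Gzma encodes a granzyme with trypsin-like activity. In ascending mutants its lowest, median and highest values were 2.65, 6.29 and 16.83 FPKM, whereas in descending mutants it was listed at 0 in 6 of 8 libraries and at 0.59 and 0.14 FPKM in mutants A1 and A3. In ascending controls the values were 3.54, 12.89 and 34.47 FPKM, and in descending controls 4 of 7 libraries were listed at 0 and controls A1, B1 and B2 stood at 0.63, 0.33 and 0.44. The regions did not overlap in either genotype. The ascending minus descending difference on the log2(FPKM + 1) scale was 2.77 ± 0.26 in mutants (SE; limma with Benjamini-Hochberg adjustment, adjusted p = 2.8e-07) and 3.38 ± 0.32 in controls (adjusted p = 4.55e-06). Gene by gene, log2(FPKM + 1) understates changes at such low levels.

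Gzmb, whose protease cleaves after aspartate and activates caspases in the target cell, followed the same order. Its lowest, median and highest values were 2.14, 3.95 and 5.62 FPKM in ascending mutants, and in descending mutants it was listed at 0 in 4 of 8 libraries, with the other 4 at 0.33, 0.10, 0.20 and 0.09. In ascending controls it stood at 1.65, 5.48 and 8.96 FPKM, and in descending controls 3 of 7 libraries were at 0, with the others at 0.08, 0.41, 0.10 and 0.14. Again the regions did not overlap. The log2 difference between regions was 2.08 ± 0.14 in mutants (limma adjusted p = 5.83e-09) and 2.55 ± 0.24 in controls (adjusted p = 4.23e-06).

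Cd8a encodes the CD8 alpha chain, which intraepithelial T cells carry as a homodimer or paired with the beta chain. Its lowest, median and highest values were 1.14, 2.25 and 4.29 FPKM in ascending mutants and 0.04, 0.165 and 0.32 FPKM in descending mutants, a ratio of means of 14. In controls they were 2.26, 3.80 and 5.65 FPKM in the ascending colon and 0, 0.20 and 0.22 FPKM in the descending colon. Every ascending library exceeded every descending one by a wide margin. The log2 difference was 1.49 ± 0.15 in mutants (limma adjusted p = 4.91e-07) and 2.0 ± 0.16 in controls (adjusted p = 9.95e-07).

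The 3 CD3 genes, which carry the T cell receptor signal, had lower mean FPKM than the granzymes in the ascending colon. Cd3e had 0.60, 1.85 and 2.84 FPKM (lowest, median, highest) in ascending mutants against 0.14, 0.38 and 0.96 in descending mutants, and 1.42, 3.40 and 4.87 in ascending controls against 0.15, 0.48 and 0.74 in descending controls. The ratio of means was 3.89 in mutants, where ascending mutant C2 lay within the descending range, and 6.83 in controls, where the regions were apart. Cd3g had 0.64, 1.22 and 2.56 FPKM in ascending mutants against 0.04, 0.145 and 0.30 in descending mutants, and 0.42, 1.78 and 3.75 in ascending controls against 0.11, 0.30 and 0.43 in descending controls. Its ratio of means was 8.53 in mutants, with no overlap, and 7.34 in controls, where ascending control C1, at 0.42, fell just below descending control B1, at 0.43. Cd3d had 0.71, 1.08 and 2.23 FPKM in ascending mutants against 0.08, 0.12 and 0.33 in descending mutants, and 0.72, 1.67 and 3.34 in ascending controls against 0, 0.28 and 0.63 in descending controls. Its regions did not overlap in either genotype. All 3 genes rose in the ascending colon by the test. In mutants the log2 differences were 0.92 ± 0.15 for Cd3e, 0.99 ± 0.15 for Cd3g and 0.94 ± 0.12 for Cd3d, with limma adjusted p of 0.000126, 3.96e-05 and 8.46e-06. In controls they were 1.45 ± 0.18 for Cd3e, 1.14 ± 0.22 for Cd3g and 1.07 ± 0.19 for Cd3d, with adjusted p of 4.63e-05, 0.00131 and 0.000694. An antisense gene, Gm48719, shares 135 nt of exon with Cd3e, and the labels do not say whether counting used strand, so reads of that stretch cannot be assigned to either.

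Lck, the kinase that starts T cell receptor signalling, kept a clear level in the descending colon. It had 1.53, 2.85 and 5.33 FPKM in ascending mutants against 0.76, 1.16 and 1.94 in descending mutants, and 3.10, 4.73 and 5.48 in ascending controls against 0.64, 1.5 and 2.18 in descending controls. Ascending mutant A2 was the only ascending mutant within the descending range, and the controls did not overlap. The log2 difference was 0.79 ± 0.14 in mutants (limma adjusted p = 0.000234) and 1.23 ± 0.14 in controls (adjusted p = 2.23e-05).

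Itgae was the member whose regions differed least among those that passed the filter. It had 1.54, 2.81 and 4.23 FPKM in ascending mutants against 0.73, 1.83 and 4.72 in descending mutants, where mutant C1 held the highest value of the gene in any mutant library. In controls it had 2.04, 4.52 and 6.43 FPKM in the ascending colon against 1.08, 2.25 and 3.92 in the descending colon. The regions overlapped in both genotypes. The log2 difference was 0.75 ± 0.21 in controls (limma adjusted p = 0.0129) and 0.39 ± 0.20 in mutants (95% interval -0.04 to 0.81, adjusted p = 0.129). The call in controls was lost without cage B (0.61, adjusted p = 0.111), and a call in mutants appeared without cage C (0.73, adjusted p = 0.0126), without descending mutant C1 (0.53, adjusted p = 0.0167) and without ascending mutant C2 (0.50, adjusted p = 0.0493). Itgae contains the gene Haspin on its opposite strand, with no exon of either overlapping.

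Cd2, which encodes an adhesion receptor of T cells and natural killer cells, was low everywhere. It had 0, 0.45 and 1.15 FPKM in ascending mutants against 0, 0.085 and 0.54 in descending mutants, and 0.15, 0.42 and 1.66 in ascending controls against 0, 0.21 and 0.46 in descending controls. The groups overlapped, and the gene did not reach the mean of 0.5 FPKM that a gene needed to be tested between regions. Without that filter its log2 difference was 0.28 in mutants (limma adjusted p = 0.113) and 0.32 in controls (adjusted p = 0.160).

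**Figure D2:**
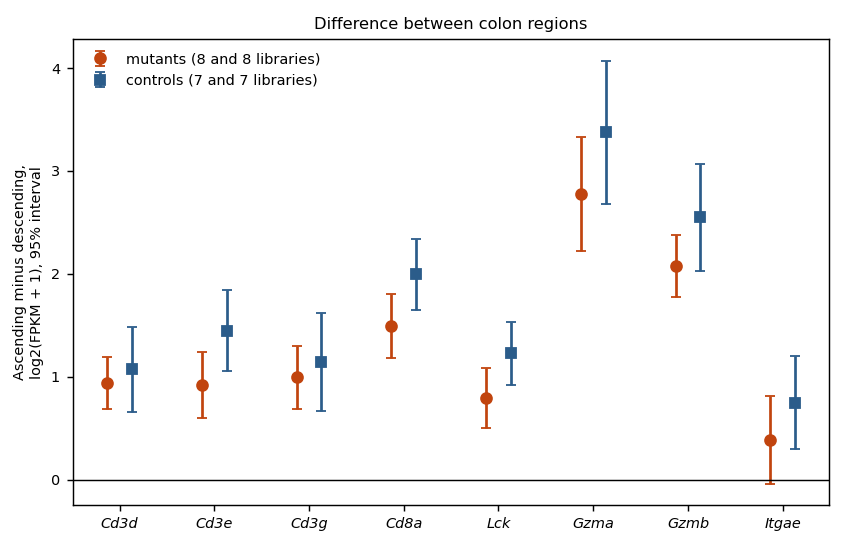
Ascending minus descending difference in log2(FPKM + 1) for the 8 T cell genes tested, with 95% intervals from limma, in mutants and in controls. The intervals stand above 0 except for Itgae in mutants, whose interval runs from -0.04 to 0.81.

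Differences between regions were common across the table, and the members have to be read against that. In mutants 14.3% of the 12203 genes tested were higher in the ascending colon and 29.7% lower, and in controls 12.8% of 12515 were higher and 25.1% lower. Groups did not overlap, with the ascending one higher, for 5.62% of genes in mutants and 3.83% in controls. Of the members, only Lck and Itgae reached a mean of 0.5 FPKM in the descending libraries of either genotype, so the other members tested passed the filter through their ascending libraries alone. With no filter every member entered the test. Then 7 of 9 were higher in mutants, against 13.4% of 14473 genes, and 8 of 9 in controls, against 12% of 14475 genes. Because the members varied together between libraries, as given below, these counts are not of separate observations. The median log2 difference over all tested genes was -0.16 in mutants and -0.14 in controls. Median-of-ratios scaling brought it to -0.03 and -0.01, and the split of all calls moved with it, to 2320 higher and 2293 lower genes in mutants (1748 and 3620 as deposited) and to 2138 and 1890 in controls (1598 and 3146 as deposited). No called member changed direction under either scaling tried. Within each cage, all 9 mean log2 differences lay above 0 in mutants of cages A and B and in controls of cages A, B and C, and 8 of 9 in mutants of cage C, where Itgae was at -0.19.

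The order of levels differed between regions. FPKM is a level per length, but the gene lengths used for it are not named in the sources. The order between genes is therefore that of the deposited values only. In the ascending colon the order by mean was Gzma, Gzmb, Lck, Itgae, Cd8a, Cd3e, Cd3g, Cd3d and Cd2 in both genotypes. The ranges of all neighbours in that order overlapped. In the descending colon Itgae came first, with 2.0 FPKM in mutants and 2.17 in controls, followed by Lck with 1.27 and 1.40, and every other member averaged below 0.5 FPKM. Gzmb, the second in the ascending colon, had the lowest mean in the descending colon, at 0.090 FPKM in mutants and 0.104 in controls. Gzma stood at 0.0913 in descending mutants, and 1 read of Gzmb is worth 0.0787 to 0.222 FPKM in descending libraries. The order among the lowest members there is therefore not resolved.

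Genes that work beside the members were counted from lists. Of the T cell receptor signalling list, 8 of 9 genes tested were higher in the ascending colon in mutants and 9 of 10 in controls, and none was lower. Of the genes tested, 4 in mutants and 5 in controls averaged 0.5 FPKM or more in both regions. Zap70, the kinase that binds phosphorylated CD3 chains, differed by 0.60 ± 0.12 in mutants and 1.16 ± 0.16 in controls (limma adjusted p = 0.00055 and 9.95e-05). Zap70 passed the filter through its ascending libraries alone, so its calls are no support for the list. Ptprcap, which associates with the phosphatase CD45, differed by 0.85 ± 0.29 and 1.15 ± 0.22 (adjusted p = 0.0237 and 0.00100). Fyn, another kinase of this pathway, differed by 0.31 ± 0.10 and 0.50 ± 0.14 (adjusted p = 0.0144 and 0.0136). Cd53, a tetraspanin of many leukocytes, was the gene not called, at 0.20 ± 0.20 and 0.37 ± 0.20 (adjusted p = 0.417 and 0.156). The receptor genes Cd8b1, Cd6 and Cd5 passed the filter between regions in controls only, and there through their ascending libraries alone, so their calls as higher are no support for the list. Cd8b1 averaged 1.33 FPKM in ascending controls against 0.203 in descending controls, Cd6 1.05 against 0.117 and Cd5 1.06 against 0.197. Cd4 stood at 0 to 0.42 FPKM in every library.

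Of the cytotoxic effector list, 5 of 6 genes tested were higher in the ascending colon in mutants and 6 of 6 in controls. Ccl5, a chemokine stored by cytotoxic lymphocytes, averaged 10.1 ± 3.99 FPKM in ascending mutants against 1.00 ± 0.686 in descending mutants, and 19.3 ± 9.06 in ascending controls against 1.30 ± 0.887 in descending controls. The log2 differences were 2.44 ± 0.21 in mutants (limma adjusted p = 7.89e-08) and 3.08 ± 0.22 in controls (adjusted p = 3.87e-07). Ctsw, a protease of cytotoxic cells, differed by 1.65 ± 0.16 in mutants and 1.97 ± 0.21 in controls (adjusted p = 3.05e-07 and 1.08e-05), and Nkg7, a membrane protein of cytotoxic granules, by 1.28 ± 0.27 and 2.02 ± 0.21 (adjusted p = 0.00105 and 8.08e-06). The gene of perforin, Prf1, was also on this list, and its values are not reported here. Of the list of residence and homing, 8 of 11 genes were higher in mutants and 8 of 12 in controls. They included Cd7, a surface protein of T cells and innate lymphocytes, at 1.88 ± 0.26 in mutants and 2.52 ± 0.27 in controls (adjusted p = 2.27e-05 and 1.08e-05), and the chemokine Xcl1 at 1.97 ± 0.35 and 1.43 ± 0.35 (adjusted p = 0.000293 and 0.00600). In mutants Xcl1 passed the filter through its ascending libraries alone, with a mean of 0.316 FPKM in the descending ones. Itgb7, the partner of Itgae, differed by 0.57 ± 0.17 in mutants and 1.20 ± 0.15 in controls (adjusted p = 0.0114 and 3.4e-05). Fcer1g, a signalling adaptor, was called in mutants (0.58 ± 0.21, adjusted p = 0.0324) and not in controls (0.54 ± 0.23, adjusted p = 0.0739).

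The list of epithelial partners was split. In mutants 6 of 17 genes were higher in the ascending colon and 7 lower, and in controls 5 were higher and 6 lower. The butyrophilin-like genes, whose products on gut epithelium sustain intraepithelial gamma delta T cells in mice, were among the higher ones. Btnl1 differed by 2.98 ± 0.22 in mutants and 3.18 ± 0.30 in controls (limma adjusted p = 1.49e-08 and 4.1e-06), Btnl6 by 1.56 ± 0.22 and 1.70 ± 0.20, and Btnl4 by 1.07 ± 0.22 and 1.14 ± 0.23. H2-T3, which encodes the thymus leukemia antigen, a ligand of the CD8 alpha homodimer, differed by 3.63 ± 0.33 in mutants and 3.62 ± 0.41 in controls (adjusted p = 1.79e-07 and 2.04e-05). The cytokine gene Il18 was the lowest of the lower ones, at -2.90 ± 0.25 and -2.76 ± 0.29 (adjusted p = 7.69e-08 and 1.01e-05). Il15, whose product maintains intraepithelial lymphocytes, was not called (0.27 ± 0.21 and 0.10 ± 0.20, adjusted p = 0.316 and 0.735). Cdh1, which encodes the E-cadherin that the Itgae product binds, differed by -0.46 ± 0.18 in mutants (adjusted p = 0.0480) and -0.46 ± 0.19 in controls (adjusted p = 0.0728).

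Of the list of lymphocyte transcription factors, 5 of 11 genes were higher and 1 lower in mutants, and 6 were higher and 1 lower in controls. Runx3, a factor of CD8 T cells and of intraepithelial T cells, differed by 0.55 ± 0.13 in mutants and 0.91 ± 0.13 in controls (limma adjusted p = 0.00281 and 0.000111). Like Zap70, it passed the filter through its ascending libraries alone. Prdm1, which encodes Blimp-1 and is also used by gut epithelium, differed by 1.10 ± 0.19 and 0.81 ± 0.24 (adjusted p = 0.000253 and 0.0168). Bcl11b, a factor of T cell identity, was the gene that was lower in both, at -0.44 ± 0.13 and -0.47 ± 0.16 (adjusted p = 0.0114 and 0.0333). Zbtb7b, the most abundant gene of this list, is also used by other cells of the colon, and averaged 82.6 ± 17.7 FPKM in ascending mutants and 78.2 ± 12.2 in ascending controls, where no T cell gene among the members averaged above 14.1.

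Lists of other immune cells held few genes that were higher in the ascending colon. In mutants none of the 2 B cell, 3 plasma cell, 8 macrophage and 1 dendritic cell genes tested was higher in the ascending colon, and 3 macrophage genes were lower. In controls none of 3, 3, 10 and 2 was higher, and 2 macrophage genes were lower. The 3 plasma cell genes were Sdc1, Xbp1 and Jchain, which averaged 63.5, 55.5 and 3.39 FPKM over all libraries. Whether plasma cells gave the RNA of Sdc1 and Xbp1 was not tested. Of the natural killer list, Il2rb, the interleukin receptor chain that T cells also carry, was higher (0.73 ± 0.11 in mutants and 1.01 ± 0.16 in controls, limma adjusted p = 4.26e-05 and 0.000329). Il2rb averaged only 0.469 FPKM in descending mutants and 0.369 in descending controls, so it passed the filter through its ascending libraries alone. Tyrobp was not called, and Klrb1c, a defining marker, had medians of 0.245 FPKM in ascending mutants, 0 in descending mutants, 0.240 in ascending controls and 0.050 in descending controls. Ncr1, also on this list, was not found by name among the genes of the deposited data. The 10 epithelial genes had median log2 differences of 0.12 in mutants and -0.09 in controls. The smooth muscle genes ran the other way, with a median of -1.93 in mutants, where 8 of 8 were lower, and of -1.49 in controls, where none of 8 was called. Of 7 fibroblast genes, 4 were lower in mutants and none was called in controls, and of the endothelial genes Vwf was lower in both. The mast cell genes were split, with Kit higher and Cma1 lower in both genotypes. The neutrophil-list gene Ly6g was lower by far, at -6.67 ± 0.20 in mutants and -6.31 ± 0.45 in controls (limma adjusted p = 1.18e-13 and 4.04e-07). S100a9 and S100a8 of the same list did not follow it. S100a9 averaged 1.27 FPKM in ascending and 0.844 in descending mutants, and 3.28 and 3.51 in controls. S100a8 averaged 0.585 and 0.191 in mutants, and 1.10 and 1.26 in controls. Ly6g alone is therefore no measure of neutrophils here. The part of these lists in the members' difference between regions was not tested. Many list genes, like most members, passed the filter through the ascending libraries alone. Of the genes whose mean reached 0.5 FPKM in both regions, 3 of 4 signalling, 3 of 4 cytotoxic, 3 of 6 residence and homing and 2 of 8 transcription factor genes were higher in mutants. In controls 4 of 5, 4 of 4, 4 of 6 and 3 of 8 of these lists were higher. In each genotype 1 transcription factor gene was lower, and no co-receptor gene reached that mean in both regions. The share of all genes called higher under this stricter requirement was not computed, so these counts have no background to be read against.

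**Figure D3:**
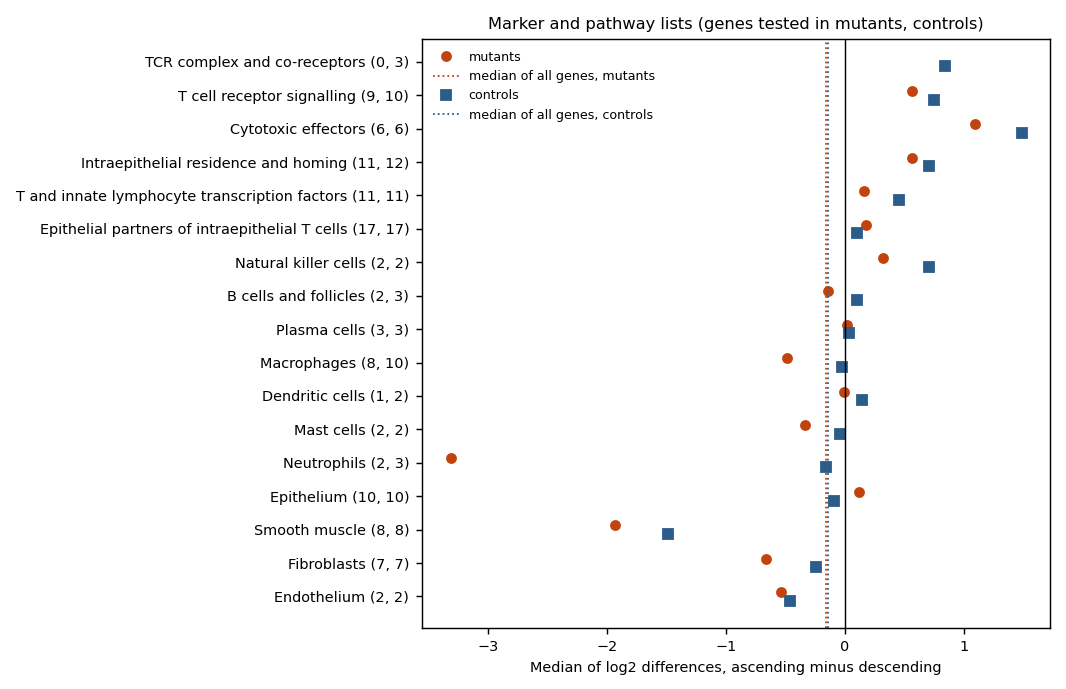
Median of the log2 differences, ascending minus descending, for each gene list, in mutants and in controls, with the numbers of genes tested in brackets and the median of all genes as dotted lines. The lists of T cell receptor signalling and cytotoxic effectors lie right of 0, and smooth muscle lies left of it, at -1.93 in mutants and -1.49 in controls.

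Mutants were then set against controls in the ascending colon. The log2 difference of every member was below 0, but none passed the test, in a comparison in which 0% of 12178 genes did. The median of the 9 differences was -0.46, against -0.05 for all genes, of which 61.3% lay below 0. At an unadjusted limma p under 0.05, 4 of 9 members were lower, against 8.01% of all genes. The members varied together over these libraries (median r of 0.66 between pairs), so these counts are not of separate observations. The groups overlapped for every member, and mutants lay wholly below controls for 0.0821% of all genes.

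Lck had 1.53, 2.85 and 5.33 FPKM (lowest, median, highest) in ascending mutants and 3.10, 4.73 and 5.48 in ascending controls. Of the mutants, 4 of 8 lay below the lowest control, and B2 was close to the highest control. The difference was -0.47 ± 0.17 (limma unadjusted p = 0.0137, adjusted p = 0.345). By cage it was -0.66 in cage A, 0.02 in cage B and -0.75 in cage C. Without cage B it was -0.71 and passed (adjusted p = 0.0375), in a comparison that then called 652 genes.

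Cd3e had a median of 1.85 FPKM in ascending mutants and 3.40 in ascending controls and differed by -0.47 ± 0.19 (limma adjusted p = 0.38). Cd8a, with medians of 2.25 in mutants and 3.80 in controls, differed by -0.46 ± 0.19 (adjusted p = 0.388). Itgae, with medians of 2.81 and 4.52, differed by -0.45 ± 0.20 (adjusted p = 0.414). Each of these 3 lay below 0 in all 3 cages. Gzmb, with medians of 3.95 and 5.48, differed by -0.51 ± 0.25 (adjusted p = 0.439), also below 0 in all 3 cages. Gzma, with medians of 6.29 in mutants and 12.89 in controls, differed by -0.62 ± 0.39 (95% interval -1.45 to 0.20, adjusted p = 0.555), at -1.27 in cage A, -0.64 in cage B and 0.04 in cage C. Cd3g and Cd3d were at -0.25 ± 0.23 and -0.22 ± 0.21 (adjusted p = 0.695 and 0.7), and Cd2 at -0.02 ± 0.20 (adjusted p = 0.975). By cage, Cd3d was at -0.97 in cage A, 0.22 in cage B and 0.09 in cage C.

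**Figure D4:**
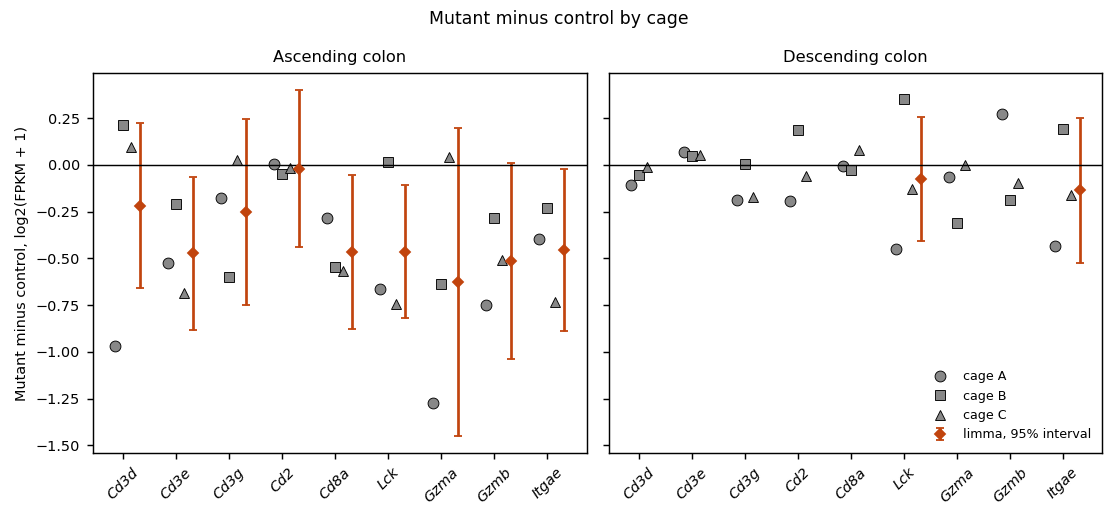
Mutant minus control difference in log2(FPKM + 1) of the 9 T cell genes, in the ascending and the descending colon. Grey symbols are differences of group means within each cage, and diamonds are limma estimates with 95% intervals, drawn in the descending colon for Lck and Itgae only; ascending values lie mostly below 0, with 8, 7 and 6 of 9 below 0 in cages A, B and C.

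In the same comparison, all 11 T cell receptor signalling genes tested, 7 of 8 cytotoxic genes and 11 of 12 residence and homing genes lay below 0, and 0 of each passed the test. The residence gene Itgb7 was at -0.66 ± 0.20 (limma adjusted p = 0.287), and Ccl5 at -0.77 ± 0.23 (adjusted p = 0.273). Lists of other cells lay below 0 as well: 7 of 7 macrophage genes with a median of -0.67, 7 of 7 fibroblast genes with a median of -0.95 and 8 of 8 smooth muscle genes with a median of -1.12. By contrast, 8 of 10 epithelial genes lay above 0, with a median of 0.21. The part of these tissue differences in the members' values was not tested. Without ascending control B1, which held the most smooth muscle RNA, the members' differences were also not called. The 3 shallow libraries were all mutants of cage A, and without cage A the differences of 8 members ran from -0.55 to -0.03 and that of Cd3d was 0.16, with none called.

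In the descending colon the members were too low for most tests. Only Lck and Itgae reached a mean of 0.5 FPKM. Lck had 0.76, 1.16 and 1.94 FPKM in descending mutants and 0.64, 1.5 and 2.18 in descending controls, a difference of -0.08 ± 0.16 (95% interval -0.41 to 0.25, limma adjusted p = 0.999). Itgae had 0.73, 1.83 and 4.72 FPKM in mutants and 1.08, 2.25 and 3.92 in controls, a difference of -0.14 ± 0.18 (95% interval -0.52 to 0.25, adjusted p = 0.999). Both lay below 0, as did 62.2% of all genes. By limma no gene of the 12219 tested was called (0%), and 267 had an unadjusted p under 0.05. The test of whether the mutant effect differed between regions called no member and 0% of 12353 genes. The estimates of the 8 members tested lay below 0, as did 52.5% of all genes. By limma 2 of 8 had an unadjusted p under 0.05, against 1.11% of all genes in that direction. All of these members but Lck and Itgae passed the filter through their ascending libraries alone. Their low descending values leave little room for a difference there, so their estimates can largely repeat the ascending ones. Cd8a was at -0.48 against -0.46 in the ascending colon, Gzmb at -0.51 in both and Cd3g at -0.13 against -0.25. These counts are therefore no separate result. The lowest unadjusted p among the members was that of Cd3e, with -0.53 ± 0.23 (unadjusted p = 0.0292, adjusted p = 1.000). An effect of the mutation on the members that differs between regions was therefore not detectable here.

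Cages were compared with genotype as a covariate. No member was called in the ascending colon, where 1.32% of genes were, or in the descending colon, where 0.597% were. The lowest p was that of Itgae in the descending colon (F = 7.52, unadjusted p = 0.00559, limma adjusted p = 0.175). There its values in cage C, 4.72, 2.58 and 1.70 FPKM in mutants and 2.70 and 3.92 in controls, were mostly above those in cage A, 1.21, 1.04 and 0.73 FPKM in mutants and 1.08 and 2.45 in controls. Cage differs together with strain label or age, and these cannot be told apart.

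The members varied together from library to library. Over the 15 ascending libraries, 36 of 36 pairs of members had a correlation above 0 after the mean of each region, genotype and cage group was subtracted, with a median Pearson r of 0.66. The closest pair was Cd3e and Itgae (r = 0.95), and the loosest was Cd2 and Gzmb (r = 0.31). These points share the library, its depth and the piece of colon taken, and the values describe the libraries with no test. Ascending controls show the spread: B2 and B3 held 10.59 and 8.29 FPKM over the 3 CD3 genes, and B1 and C1 held 2.96 and 3.05. The granzymes summed to 22.31 and 42.65 FPKM in controls B2 and B3 and to 7.11 and 8.64 in B1 and C1. In the descending colon Itgae did not follow the CD3 genes (r = 0.07 with their mean, over 15 libraries), whereas in the ascending colon it did (r = 0.89). Gzmb was also loose in the descending colon (r = 0.14, against 0.71 in the ascending colon), and Lck had 0.39 against 0.61. Cd8a and Gzma kept 0.52 and 0.59 in the descending colon. By the depth estimates, the values of Cd3e stand for 9.86 to 74.9 reads in ascending libraries and 1.92 to 27.1 reads in descending libraries.

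The 10 genes outside the members whose levels followed the mean of the CD3 genes most closely over the 30 libraries, after subtraction of the 12 group means, had r from 0.80 to 0.85. The median r over the 12345 genes that averaged 0.5 FPKM or more was 0.02. Cd160, a receptor of cytotoxic lymphocytes, came first (r = 0.85), with 0.920 FPKM on average in ascending mutants, 1.27 in ascending controls, 0.133 in descending mutants and 0.233 in descending controls. Cd7 (r = 0.83), Gimap6, a GTPase of lymphocytes (r = 0.81), and Cd8b1 (r = 0.81) were also in the 10. The rest are not known as T cell genes: Chga, a granule protein of enteroendocrine cells (r = 0.83), Nts, the gene of neurotensin (r = 0.81), Sis, sucrase-isomaltase (r = 0.80), the defensin gene Defb37 (r = 0.80), the transpeptidase gene Ggt1 (r = 0.81) and the tRNA methyltransferase gene Trdmt1 (r = 0.82). Nts averaged 22.5 FPKM in ascending mutants and 22.9 in ascending controls, and was listed at 0 in all descending mutants. Trdmt1 is the exception across regions: without subtraction its r with the CD3 genes was -0.55, with 1.38 FPKM in ascending mutants and 1.34 in ascending controls, against 2.57 in descending mutants and 2.66 in descending controls. The 8 smooth muscle genes had r from -0.53 to -0.40 with the CD3 genes by the same measure, and the 10 epithelial genes had a median r of -0.11.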

How the data were processed

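Total RNA from pieces of mouse colon was depleted of ribosomal RNA and sequenced as single reads of 50 nt, per the labels' protocols. The deposited table gives FPKM computed by the authors, with 2 decimals. bcl2fastq 2.17, STAR, DESeq2 and the mouse build GRCm38 (mm10) are named per the submitters' processing notes, and the sources used here do not name the gene counter, annotation, gene lengths or gene filter. Tests used log2(FPKM + 1) and took in each gene that averaged 0.5 FPKM or more across the fitted libraries. They were run with limma 3.58.1 in R 4.3.3 (lmFit, eBayes with trend), two-sided, and called at a Benjamini-Hochberg adjusted p under 0.05 over all genes. Cage was a covariate, or genotype where cages were compared. The fits were tested on simulated data. Depth was estimated from steps between low values (72.9 to 84.3% lay within 0.2 of a step) and entered no test.

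Members and gene lists were chosen with earlier results of these data known. The text names every member, genes among the 3 with the highest mean in each list, the 10 genes most like the CD3 genes, and the genes targeted in the mutants. Other list genes named (such as Zap70, Itgb7, Btnl1, H2-T3, Il18, Il15, Runx3, Prdm1 and Bcl11b) were chosen after their values were seen. No 2 libraries held identical values. Positions are from GENCODE M21 on GRCm38, to which 14472 identifiers matched, and promoter sequences are from RefSeq on GRCm38.p6. Alternatives changed the pseudocount (0.1), the filter (none, or a mean of 2), the scaling, the covariate, or the libraries and cages used.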

Additional observations from a re-analysis of the deposited data

Results flagged for a closer look

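The 9 members formed 36 groups of 7 or 8 libraries. In these, 3 values stood apart from the rest of their group by Dixon's criterion. Chance alone meets it in about 1 in 20 groups of normally spread values. That rate does not hold for groups with many values at 0. Gzma was at 0 in 6 of 8 descending mutants, and Gzmb in 3 of 7 descending controls. The groups also share libraries. Gzmb in ascending control B1 was the lowest of 7, at 1.41 on the log2(FPKM + 1) scale (1.65 FPKM), with the other 6 controls between 5.10 and 8.96 FPKM. The same library held the most smooth muscle RNA of the ascending libraries, with a summed 457 FPKM. Gzma in descending mutant A1 was the highest of 8, at 0.67 (0.59 FPKM), with the others at or below 0.14 FPKM. Gzmb in descending control B2 was the highest of 7, at 0.50 (0.41 FPKM), with the others at or below 0.14 FPKM. By the depth estimates, descending values of Gzma stand for at most 3.87 reads and those of Gzmb for at most 5.13 reads.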

How the results depend on the processing

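Of 1189 values of members under alternatives, 1165 kept their direction and their side of the threshold. Cd3d, Cd3e, Cd3g, Cd8a, Lck, Gzma and Gzmb were called as higher in the ascending colon in both genotypes under every alternative that tested them; the filter at a mean of 2 FPKM left 2 members in mutants and 4 in controls to be called. The Itgae call between regions changed: in controls 0.61 without cage B, and in mutants 0.55 with quantile normalization (adjusted p = 0.0391), 0.73 without cage C, and 0.26 to 0.53 with 1 library left out. Ascending Lck was called only without cage B (-0.71). Among uncalled differences of mutants from controls, some turned positive. In the ascending colon these were Cd3d (0.16 without cage A) and Cd2 (0.12 with quantile normalization; -0.10 to 0.055 with 1 library left out). In the descending colon these were Lck (0.020 with quantile normalization, 0.11 without cage A; -0.17 to 0.018 with 1 library left out) and Itgae (0.014 without cage A, 0.029 with the replicate block). In the difference between regions these were Cd3d (0.19 without cage A; -0.27 to 0.00437 with 1 library left out) and Cd3g (0.13 with a pseudocount of 0.1, 0.10 without cage B; -0.28 to 0.00817 with 1 library left out).

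Counts of called genes moved too. Between genotypes in the ascending colon 652 genes were called without cage B and 0 to 170 with 1 library left out, the 170 without ascending mutant B1. Between regions, 3528 genes were called in mutants without cage C, and in controls 2069 without cage B and 2567 without cage C. Among cages, 44 to 581 genes were called in the ascending and 33 to 176 in the descending colon with 1 library left out. The cause was not tested.

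Whether replicate numbers pair the libraries could not be decided. Same-numbered ascending and descending libraries had r from -0.28 to 0.37 after group means were subtracted, and 4 of 15 pairs exceeded 0.1. In groups of 2 libraries both pairs share 1 value of r by construction. The pairs of cage C mutants had r of 0.37, 0.28 and 0.20. With the replicate block, 5219 genes were called between regions in mutants and 4236 in controls, and 0 between genotypes. Depth limits low values in both regions: by the estimates, Cd3g stands for 4.72 to 41.6 reads in ascending and 0.956 to 12.3 reads in descending libraries, and Gzmb for 6.18 to 50.8 and 0 to 5.13.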
